A study of Mus musculus with 2 samples.

Results

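Connexins are the proteins that build gap junctions, and the levels of 8 connexin genes (*Gja1*, *Gjb6*, *Gjb2*, *Gjb1*, *Gjc3*, *Gja4*, *Gjc1* and *Gjd2*) were measured in single cells of the mouse ventral parafacial region, an area of the ventral medulla that holds neurons sensitive to carbon dioxide. The genes were chosen by name, and they are 8 of the 20 connexin genes and of the 28692 genes listed in the deposited matrices. Their UMIs (unique molecular identifiers, each standing for 1 captured RNA molecule) were summed over 9 cell classes, each gated by 1 marker gene that is not a connexin. The cells were freed from brainstem slices with a protease. All mice were C57BL6/J, were 10 days old and were pooled by 8 (4 male and 4 female) for each of 2 libraries. The mice of the first library were untreated wild type, and those of the second were injected with 4OH-tamoxifen, the active metabolite of tamoxifen that binds estrogen receptors, at 0.2 mg per day for 3 days. With 1 library per condition, condition, library preparation and pool of mice cannot be told apart, and no test between conditions was made.

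Connexin proteins assemble as rings in the membrane, and a ring that docks with one on a neighbouring cell forms a channel for ions and small molecules, while an undocked ring can act as a hemichannel. Astrocytes are known for connexin 43 (the product of *Gja1*) and connexin 30 (*Gjb6*), which couple them into a network, and oligodendrocytes for connexin 32 (*Gjb1*) and connexin 29 (*Gjc3*). Connexin 37 (*Gja4*) and connexin 45 (*Gjc1*) are known from vessel walls, connexin 36 (*Gjd2*) forms electrical synapses between neurons, and connexin 26 (*Gjb2*) has been proposed as a hemichannel that carbon dioxide opens at the surface of the ventral medulla.

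*Gjb2* and *Gjb6* lie near each other on chromosome 14, on the same strand. *Gjb2* (ENSMUSG00000046352) is annotated at chr14:57098600-57104702 and *Gjb6* (ENSMUSG00000040055) at chr14:57123303-57133611, both on the minus strand of GRCm38 (GENCODE vM21), with 18600 bases and 1 annotated protein-coding gene (Gm4491) between them. *Gjb1* (ENSMUSG00000047797) is on the plus strand at chrX:101376378-101385629 and *Gjc3* (ENSMUSG00000056966) on the minus strand at chr5:137953461-137963098. The other members are *Gja1* (ENSMUSG00000050953) at chr10:56377330-56402513 on the plus strand, and on the minus strand *Gja4* (ENSMUSG00000050234) at chr4:127311421-127314039, *Gjc1* (ENSMUSG00000034520) at chr11:102799579-102819700 and *Gjd2* (ENSMUSG00000068615) at chr2:114009601-114013619. The coding part lies in 1 exon in 6 of the 8 members and in 2 exons in *Gjc3* and *Gjd2*. No annotated gene overlaps a member except A530058N18Rik, on the opposite strand at *Gjd2*, so that reads of those genes may be uncertain.

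RefSeq promoters (GRCm38.p6, 250 bases before to 50 after a start) were found for 7 of the 8 members, all but *Gjc1*. The promoters of *Gjb2* and *Gjb6* are shown because these genes share a cell class below, and those of *Gjb1* and *Gjc3* because they appear at different stages of the oligodendrocyte lineage. They are at chr14:57104653-57104952 (minus strand), chr14:57133562-57133861 (minus), chrX:101383482-101383781 (plus, the fourth of the 4 starts listed for *Gjb1*) and chr5:137963049-137963348 (minus). Capitals mark matches on either strand to the letters GGGCGG (the box bound by Sp factors, called GC box below), the letters TATAAA (the box bound near starts, called TATA box), the letters TGANTCA (the AP-1 site), or the core of SOX factor sites, with the letters ACAAAG or otherwise with the letters ACAATG, and no matches overlapped.
Gjb2: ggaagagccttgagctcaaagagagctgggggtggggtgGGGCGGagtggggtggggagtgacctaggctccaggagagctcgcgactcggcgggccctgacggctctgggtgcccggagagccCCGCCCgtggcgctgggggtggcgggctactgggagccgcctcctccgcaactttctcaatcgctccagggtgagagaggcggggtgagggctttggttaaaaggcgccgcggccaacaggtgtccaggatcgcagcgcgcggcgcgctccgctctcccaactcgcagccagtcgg
Gjb6: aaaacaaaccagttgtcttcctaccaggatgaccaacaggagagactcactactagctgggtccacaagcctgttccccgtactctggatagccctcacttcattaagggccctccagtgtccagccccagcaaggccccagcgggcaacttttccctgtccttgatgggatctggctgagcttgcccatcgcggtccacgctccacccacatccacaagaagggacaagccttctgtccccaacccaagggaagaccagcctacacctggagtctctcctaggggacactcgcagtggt
Gjb1: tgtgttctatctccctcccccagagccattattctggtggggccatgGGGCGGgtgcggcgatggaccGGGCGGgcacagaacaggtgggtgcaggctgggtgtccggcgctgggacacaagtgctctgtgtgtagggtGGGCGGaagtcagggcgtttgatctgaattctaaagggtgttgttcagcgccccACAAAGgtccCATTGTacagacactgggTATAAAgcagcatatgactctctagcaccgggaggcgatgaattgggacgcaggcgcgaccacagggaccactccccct
Gjc3: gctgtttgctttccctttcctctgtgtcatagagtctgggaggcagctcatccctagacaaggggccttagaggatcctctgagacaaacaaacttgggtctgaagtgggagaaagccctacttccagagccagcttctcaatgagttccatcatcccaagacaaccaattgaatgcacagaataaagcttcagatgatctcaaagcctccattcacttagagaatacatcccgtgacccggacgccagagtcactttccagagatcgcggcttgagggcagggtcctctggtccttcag
The *Gjb2* window held 2 GC boxes, with a GC content of 70.0%, and the *Gjb6* window a GC content of 57.3% and none of the 4 motifs. The *Gjb1* window held 3 GC boxes, SOX cores that begin 57 and 47 bases before the start, and a TATA box 29 bases before it. Of the other starts of *Gjb1*, the most upstream held 1 SOX core and the other two none of the motifs, and the *Gjc3* window held none. Among 32851 mouse promoters of this length, 35.7% held a GC box, 13.6% a TATA box, 28.6% a SOX core and 7.81% an AP-1 site, and the median GC content was 52.7%. These matches are letters in a window and say nothing of binding.

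After filters on genes, hemoglobin, mitochondrial UMIs and doublets, 3339 cells of the untreated library and 8558 of the 4OH-tamoxifen library were kept, and the gates placed 8219 of these 11897 cells in a class. The classes were astrocyte-like (gated by *Aqp4*), oligodendrocyte precursor-like (*Pdgfra*, called precursor-like below), committed precursor-like (*Gpr17*), oligodendrocyte-like (*Mog*), microglia-like (*C1qa*), endothelial-like (*Cldn5*), pericyte-like (*Kcnj8*), fibroblast-like (*Dcn*) and neuron-like (*Snap25*). In each library, 6 of 6 further markers were detected in every class but the oligodendrocyte-like, where *Mbp* missed the rule. The astrocyte-like class was largest (737 untreated and 1606 4OH-tamoxifen cells) and the fibroblast-like (35 and 35) and pericyte-like (43 and 31) classes smallest. The libraries shared 40 cell barcodes, 32 of them among the kept cells. The median kept cell of the untreated library had 3628 UMIs, against 2411 for 4OH-tamoxifen. A level is given below as CPM, the UMIs of a gene per 1000000 UMIs summed over the cells of a class, always with the untreated library first, and a range in parentheses is an exact 95% Poisson interval, which covers counting error only. Microglia, which are not known for connexins in the resting brain, served as the background for RNA free in the suspension.

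*Gja1* was highest in astrocyte-like cells, *Gjb2* and *Gjb6* in fibroblast-like cells, *Gjb1* in oligodendrocyte-like cells, *Gja4* and *Gjc1* in pericyte-like cells and *Gjd2* in neuron-like cells. The class with the highest level was the same in both libraries for 7 of the 8 genes, the exception being *Gjc3*. The share of all genes that keep their leading class is not given, so this count has no background beside it. Taking a class as enriched when its level was at least 4 times that in the 8 other classes together, in both libraries, 10 of the 72 member and class pairs passed. They were *Gja1* and *Gjb6* in astrocyte-like cells (2 of 8 members, where 3.84% of 13302 genes passed), *Gjb1* in oligodendrocyte-like cells (1 of 8, 2.41% of genes), *Gja4* and *Gjc1* in endothelial-like (2 of 8, 5.06%) and in pericyte-like cells (2 of 8, 2.59%), *Gjb2* and *Gjb6* in fibroblast-like cells (2 of 8, 2.74%) and *Gjd2* in neuron-like cells (1 of 8, 9.47%). *Gjc3* passed in no class, since it was shared along the oligodendrocyte lineage.

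**Figure D1:**
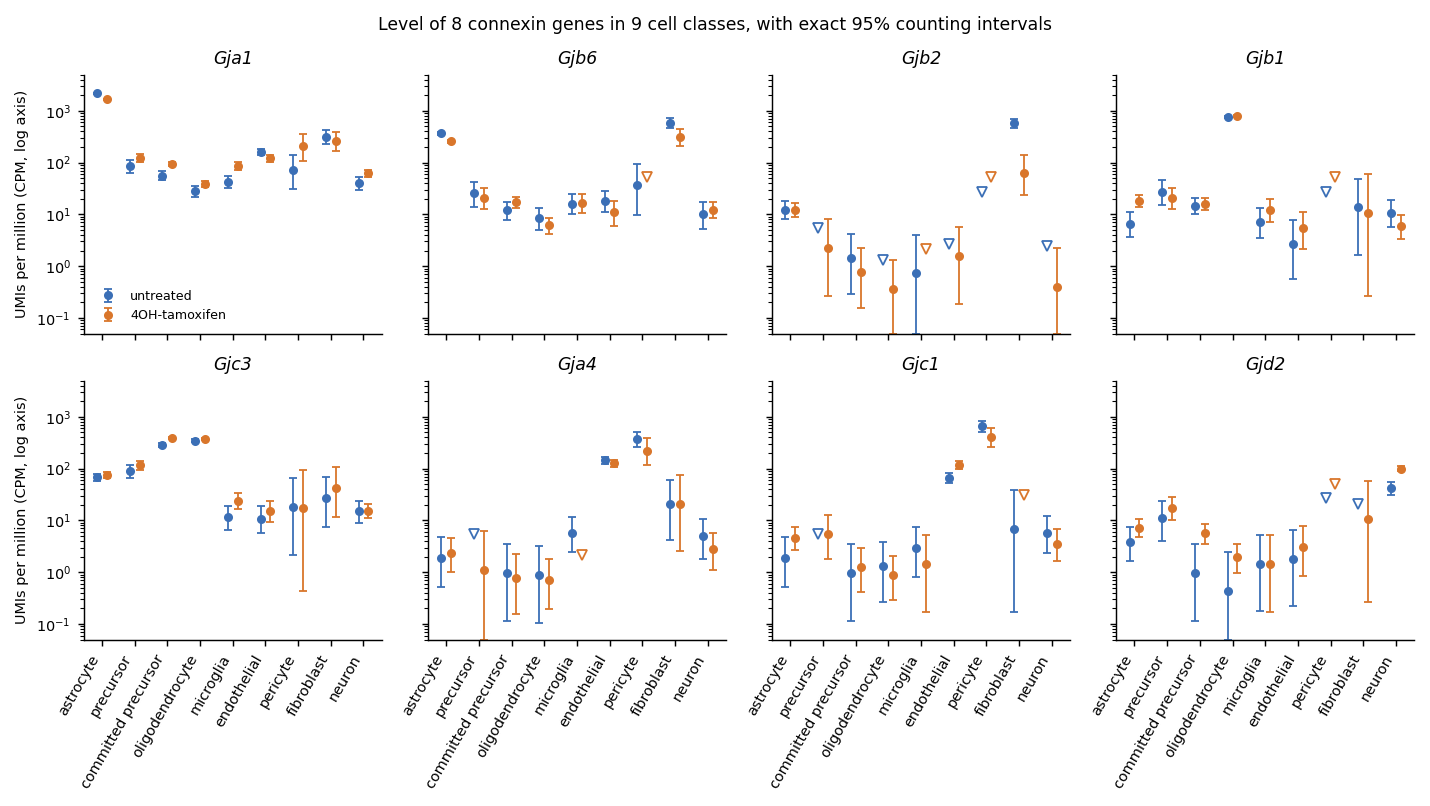
Level of each connexin gene in CPM (log axis) in the 9 classes, in the untreated (blue) and 4OH-tamoxifen (orange) libraries. Points are levels, bars are exact 95% Poisson intervals drawn down to the lower edge of the axis where they pass it, and open triangles are the level of 3 UMIs, the limit that a count of 0 allows, where no UMI was counted. *Gja1* reached 2159 and 1673 CPM in astrocyte-like cells, and *Gjb1* 769 and 786 CPM in oligodendrocyte-like cells.

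*Gja1*, the gene of the main astrocyte connexin, was read in nearly every astrocyte-like cell. Its level there was 2159 CPM (2097 to 2223) in the untreated library and 1673 CPM (1630 to 1717) in the 4OH-tamoxifen library, from 4542 and 5765 UMIs. These levels were 33.8 and 22.7 times those of the other 8 classes together. At least 1 *Gja1* UMI was found in 97.6% and 92.2% of astrocyte-like cells, at median depths of 2683 and 2018 UMIs. In microglia-like cells, with median depths of 4008 and 2295 UMIs, the share was 15.2% and 19.3%. The median astrocyte-like cell held 6 and 3 *Gja1* UMIs, and the cell with most held 20 and 19. With every cell thinned to 2000 UMIs, which left out 86 and 773 shallower cells, the share was 95.9% and 90.3%.

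Fibroblast-like cells came next for *Gja1*, with 313 CPM (229 to 417) and 264 CPM (171 to 390). In the 4OH-tamoxifen library the pericyte-like interval, 107 to 361 CPM from 12 UMIs, overlapped the fibroblast-like one. Astrocyte-like cells exceeded fibroblast-like cells 6.90-fold (5.17 to 9.44) and 6.34-fold (4.29 to 9.80). Fibroblast-like cells exceeded microglia-like cells 7.28-fold (4.84 to 10.9) and 3.03-fold (1.89 to 4.69). Endothelial-like cells had 159.6 CPM (137 to 185) and 122 CPM (104 to 143), and microglia-like cells had 42.9 and 87.1 CPM. The 6 astrocyte check markers (*Aldoc*, *Slc1a2*, *Slc1a3*, *Slc4a4*, *Aldh1l1* and *Fgfr3*) summed to 626 and 832 CPM in endothelial-like and to 725 and 1347 CPM in microglia-like cells, so that *Gja1* stood higher in endothelial-like cells while these markers stood lower. They summed to 993 and 1605 CPM in fibroblast-like cells and to 8007 and 8270.5 CPM in astrocyte-like cells. At least 2 *Gja1* UMIs were found in 18.5% and 8.77% of endothelial-like cells against 2.73% and 1.98% of microglia-like cells. Below fibroblast-like cells the order differed between the libraries, with endothelial-like cells above pericyte-like (72.1 and 207 CPM) and precursor-like cells (86.1 and 123 CPM) in the untreated library but not in the other. Together with committed precursor-like (56.2 and 93.5 CPM) and microglia-like cells, these did not stand apart from their neighbours in both libraries, and neuron-like (40.1 and 62.4 CPM) and oligodendrocyte-like cells (27.7 and 38.0 CPM) were lowest.

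*Gjb6*, the gene of the other astrocyte connexin, was highest in fibroblast-like and astrocyte-like cells. Fibroblast-like cells had 585 CPM (468 to 722) and 306 CPM (205 to 439.8), from 86 and 29 UMIs. The latter ranged from 263 CPM with at least 1200 genes per cell to 485 CPM in cells with no UMI of another class marker. Astrocyte-like cells had 369.9 CPM (344 to 397) and 256 CPM (239 to 273), from 778 and 881 UMIs. The fibroblast-like level was 1.58 times (1.25 to 1.98) the astrocyte-like level in the untreated library and 1.20 times (0.797 to 1.73) in the other, so the order of the leading classes was not apart from counting error in both libraries. Without cells with 10 or more *Ptgds* UMIs, a split described below, the untreated fibroblast-like level was 379 CPM, beside 369.9 CPM in astrocyte-like cells. All other classes lay at or below 36.1 CPM in both libraries, with microglia-like cells at 16.01 and 16.4 CPM and no neighbours in that order apart from each other in each library. Of the astrocyte-like cells, 57.1% and 39.4% held a *Gjb6* UMI, against 6.36% and 3.78% of microglia-like cells. *Gja1* UMIs were found in 99.8% and 97.5% of the astrocyte-like cells that held *Gjb6*, and *Gjb6* UMIs in 58.4% and 41.7% of those that held *Gja1*.

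Astrocyte-like cells were split by genes of gray matter and of fibrous astrocytes. Cells with at least 2 UMIs of *Slc7a10* and *Slc6a11*, transporter genes of parenchymal astrocytes, and none of the other pair numbered 323 and 567. Cells with at least 2 UMIs of *Gfap* and *Myoc*, genes of astrocytes at the brain surface and in white matter, and none of the first pair numbered 15 and 89. *Gjb6* stood at 466 CPM (422 to 514) and 349.9 CPM (317 to 385) in the former. In the latter it stood at 0 UMIs in the 15 untreated cells, where 3 UMIs, the limit that a count of 0 allows, would be 73.7 CPM, and at 125 CPM (80.2 to 186) in the 4OH-tamoxifen library. The ratio of these levels was 2.80 (1.85 to 4.41) in the 4OH-tamoxifen library. *Gja1* differed little between the same cells, at 2065 and 1627 CPM in the *Slc7a10* or *Slc6a11* cells and 1745 and 1685 CPM in the *Gfap* or *Myoc* cells, with ratios of 1.18 (0.934 to 1.52) and 0.966 (0.858 to 1.09).

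*Gjb2* was found in the fewest cells of the 8, with a UMI in 79 and 78 of all kept cells. Fibroblast-like cells held 84 and 6 of its UMIs, at 571 CPM (455 to 707) in the untreated and 63.4 CPM (23.2 to 138) in the 4OH-tamoxifen library. The latter rests on 6 UMIs and ranged from 18.5 CPM, the level of 1 UMI in the 27 cells left when each cell is thinned to 2000 UMIs, to 121 CPM in cells with no UMI of another class marker. Astrocyte-like cells held 26 and 42, at 12.4 CPM (8.07 to 18.1) and 12.2 CPM (8.79 to 16.5). The remaining classes held 0 to 3 UMIs each in a library, and microglia-like cells 1 and 0, at a level of 0.728 CPM in the untreated library and under 2.14 CPM, the level of 3 UMIs that a count of 0 allows, in the other. No astrocyte-like cell held more than 1 *Gjb2* UMI, and 3.53% and 2.62% held 1, against 0.303% of microglia-like cells in the untreated library. The astrocyte-like level was 17.0 times (2.79 to 696) the microglia-like level in the untreated library, on 1 microglia-like UMI. The 6 fibroblast check markers moved with it, at 153 and 136 CPM in astrocyte-like against 39.3 and 17.9 CPM in microglia-like cells, and their part in the astrocyte-like *Gjb2* level was not tested. The fibroblast-like level exceeded the astrocyte-like level 46.2-fold (29.5 to 74.8) and 5.20-fold (1.81 to 12.3).

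*Gjb2* and *Gjb6* were counted cell by cell in the fibroblast-like class, with no test of whether they go together. Of the 35 untreated cells, 19 held both, 8 only *Gjb2*, 5 only *Gjb6* and 3 neither. Of the 35 cells of the 4OH-tamoxifen library, 2 held both, 4 only *Gjb2*, 14 only *Gjb6* and 15 neither. The untreated cells held up to 12 *Gjb2* UMIs, with 3 or more in 13 cells, whereas no 4OH-tamoxifen cell held more than 1. The ratio of the *Gjb2* level in the 4OH-tamoxifen library over the untreated was 0.111 (0.0396 to 0.252), or 0.0341 (0.000842 to 0.202) from 38 and 1 UMIs with cells thinned, while *Gjb6* had a ratio of 0.524 (0.331 to 0.806) and *Gja1* of 0.844 (0.497 to 1.40). The 6 fibroblast check markers summed to 20116 and 19491 CPM in these cells, while the 6 pericyte check markers were lower in the 4OH-tamoxifen library, at 6540 and 2935 CPM, and their part in the *Gjb2* ratio was not tested.

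The fibroblast-like cells of the libraries differed in *Ptgds* too, the gene of prostaglandin D synthase, which arachnoid and pial cells express. At least 10 *Ptgds* UMIs were found in 10 of the 35 untreated cells and in 1 of the 35 4OH-tamoxifen cells, a split chosen after the values were seen. In the 10 untreated cells *Gjb2* stood at 1044 CPM (772 to 1380) and *Gjb6* at 1023 CPM (754 to 1356). In the other 25 untreated cells *Gjb2* stood at 349 CPM (243 to 486) and *Gjb6* at 379 CPM (268 to 521). In the 34 cells of the 4OH-tamoxifen library with little *Ptgds*, *Gjb2* stood at 65.0 CPM (23.8 to 141) and *Gjb6* at 303 CPM (201 to 438). Without the cells rich in *Ptgds*, *Gjb2* thus remained lower in the 4OH-tamoxifen library, by a smaller factor, and *Gjb6* overlapped between the libraries within counting error. Whether the libraries sampled different meningeal layers was not tested.

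**Figure D2:**
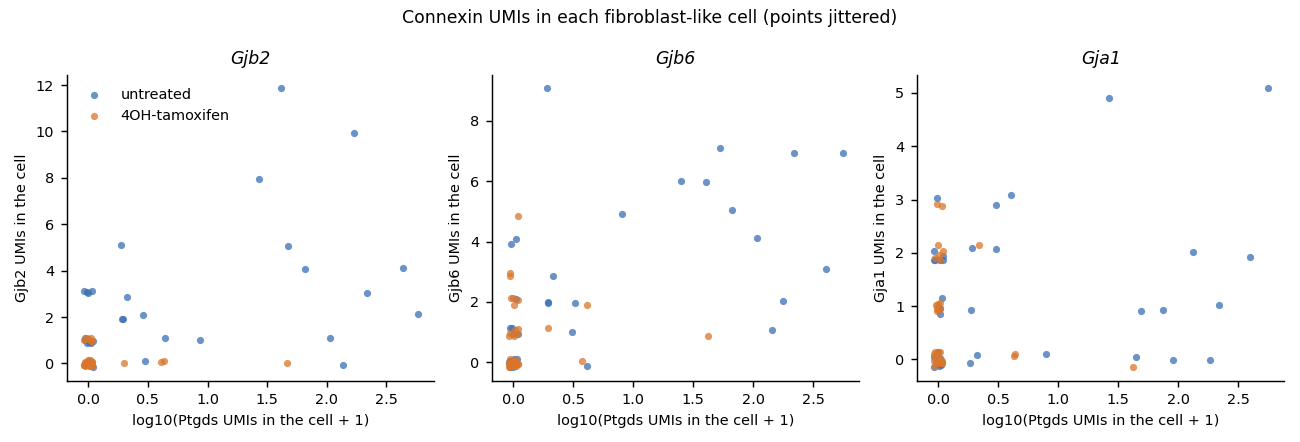
UMIs of *Gjb2*, *Gjb6* and *Gja1* in each fibroblast-like cell (vertical axes) against log10 of its *Ptgds* UMIs plus 1 (horizontal axes), with points jittered. The 10 cells with at least 10 *Ptgds* UMIs in the untreated library (blue) include the highest *Gjb2* counts, and the 35 cells of the 4OH-tamoxifen library (orange) hold at most 1 *Gjb2* UMI each.

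*Gjb1* was the most narrowly placed of the oligodendrocyte connexins. Its level in oligodendrocyte-like cells was 769 CPM (734 to 806) and 786 CPM (763 to 809.8), from 1752 and 4368 UMIs, and 75.9 and 58.2 times that of the other classes together. No other class exceeded 27.5 CPM, and microglia-like cells had 7.28 and 12.1 CPM. At least 1 UMI was found in 80.8% and 83.8% of oligodendrocyte-like cells, at median depths of 8943 and 6317.5 UMIs, against 3.03% and 2.70% of microglia-like cells. Committed precursor-like cells, the stage before, had 14.8 and 15.8 CPM, so the step into the oligodendrocyte-like class was 52.1-fold (36.6 to 77.0) and 49.6-fold (38.6 to 64.8). Cells with at least 2 UMIs of both *Gpr17* and *Mog* joined neither class, so cells between these stages may be left out of this step. Gated cells of all classes held 1840 of 2805 and 4552 of 6134 *Gjb1* UMIs of the kept cells.

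*Gjc3* rose earlier in the lineage than *Gjb1*. It stood at 89.8 CPM (66.4 to 119) and 115 CPM (94.3 to 139.9) in precursor-like cells. Committed precursor-like cells had 289 CPM (266 to 313) and 389.7 CPM (370.4 to 409.7), which was 3.22 (2.40 to 4.40) and 3.37 times (2.77 to 4.16) the level before. Oligodendrocyte-like cells had 349 CPM (325 to 374) and 378 CPM (362 to 395), which was 1.21 (1.09 to 1.34) and 0.970 times (0.908 to 1.04) the committed precursor-like level. The leading class thus changed between the libraries, and these classes were not apart in both. Gated cells of all classes held 1645 of 3251 and 4088 of 6813 *Gjc3* UMIs of the kept cells. Precursor-like cells exceeded microglia-like cells (11.6 and 24.3 CPM) 7.71-fold (4.31 to 14.5) and 4.76-fold (3.20 to 7.23). Astrocyte-like cells also held *Gjc3*, at 67.5 and 75.5 CPM, 5.80 (3.45 to 10.4) and 3.11 times (2.17 to 4.58) the microglia-like level. The 6 oligodendrocyte check markers summed to 13413 and 16714 CPM in astrocyte-like and to 11794 and 16542 CPM in microglia-like cells. The 6 precursor check markers stood at 783 and 862 CPM in astrocyte-like against 160.1 and 286 CPM in microglia-like cells, and so moved with *Gjc3*, and their part in its astrocyte-like level was not tested.

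Within oligodendrocyte-like cells *Gjb1* increased along the stages that *Enpp6* (newly formed), *Opalin* (intermediate) and *Klk6* or *Hapln2* (mature) mark. The cells with *Enpp6* (28 and 92) had 257 and 320.5 CPM of *Gjb1*. Those with *Opalin* and neither early nor late genes (26 and 131) had 388 and 424 CPM, and those with *Klk6* or *Hapln2* (28 and 141) had 1013 and 856 CPM. The last exceeded the first 3.95-fold (2.96 to 5.33) and 2.67-fold (2.25 to 3.19). *Gjc3* did not follow, with 415 and 445 CPM, 319.9 and 417 CPM, and 343 and 413 CPM in the same order and a ratio of last to first of 0.827 (0.608 to 1.12) and 0.928 (0.781 to 1.11). In oligodendrocyte-like cells 72.8% and 72.2% held both *Gjb1* and *Gjc3*, and 31.6% and 35.5% did with cells thinned to 2000 UMIs.

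**Figure D3:**
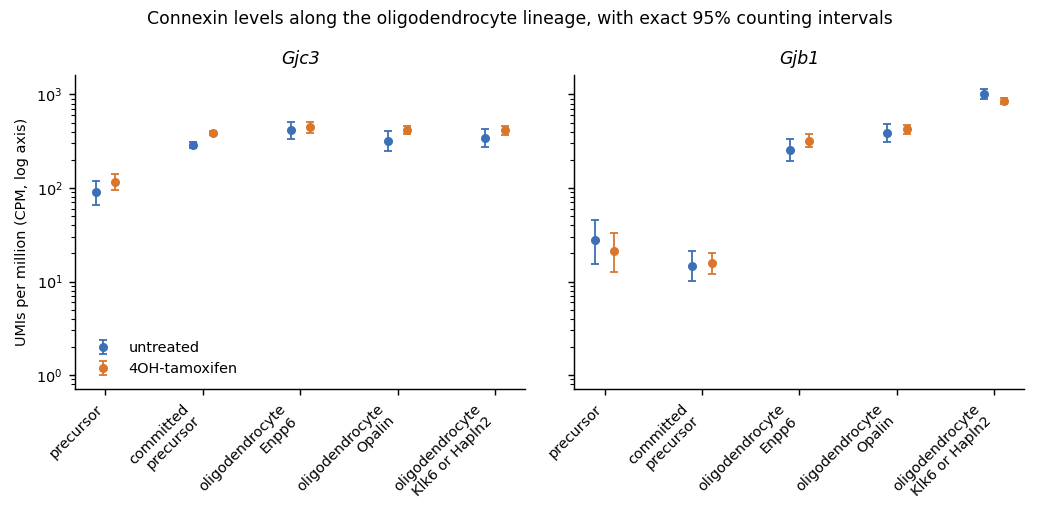
Levels of *Gjc3* and *Gjb1* in CPM (log axis) in precursor-like and committed precursor-like cells and in 3 splits of oligodendrocyte-like cells, with exact 95% Poisson intervals, in the untreated (blue) and 4OH-tamoxifen (orange) libraries. *Gjc3* is at 289 and 389.7 CPM by the committed precursor-like stage, and *Gjb1* continues upward to 1013 and 856 CPM in the *Klk6* or *Hapln2* cells.

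The vascular members *Gja4* and *Gjc1* were found in pericyte-like and endothelial-like cells. *Gja4* stood at 369.7 CPM (265 to 502) and 224 CPM (119 to 383) in pericyte-like and at 144 CPM (123 to 168) and 128 CPM (109 to 149) in endothelial-like cells. The ratio of pericyte-like to endothelial-like cells was 2.56 (1.77 to 3.63) and 1.75 (0.910 to 3.07), so that they were apart only in the untreated library. With at least 1200 genes per cell, the pericyte-like level of the 4OH-tamoxifen library was 66.2 CPM in place of 224 CPM. That is under the 128 CPM of its endothelial-like cells without this filter, and their level with it is not given here. All other classes were at or below 21.1 CPM, and microglia-like cells held 8 and 0 UMIs. *Gja4* was found in 51.2% and 38.7% of pericyte-like and 34.4% and 29.8% of endothelial-like cells, against 1.21% of microglia-like cells in the untreated library, and 0 of the 555 in the other allows a share of cells with a UMI of up to 0.541%.

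*Gjc1* leaned more towards pericyte-like cells. Its level was 658 CPM (516 to 828) and 413 CPM (265 to 615) there, against 66.2 CPM (51.9 to 83.2) and 117 CPM (99.4 to 138) in endothelial-like cells, a ratio of 9.95 (7.09 to 13.9) and 3.52 (2.19 to 5.44). No other class exceeded 6.80 CPM. The 6 pericyte check markers (*Abcc9*, *Pdgfrb*, *Rgs5*, *Vtn*, *Higd1b* and *Anpep*) summed to 18658 and 13178 CPM in pericyte-like and to 1336 and 1835 CPM in endothelial-like cells, where they stood above the 184 and 60.7 CPM of microglia-like cells. Their part in the endothelial-like *Gjc1* level was not tested. Of the endothelial-like cells 24.2% and 28.4% held a *Gjc1* UMI, and of those with *Gjc1* 40.0% and 36.1% also held *Gja4*. With cells thinned to 2000 UMIs the latter share was 16.7% and 11.4%, from 4 and 5 cells with both genes. The smooth muscle genes *Acta2*, *Tagln* and *Myh11* summed to 18.0 and 34.5 CPM in pericyte-like cells, and no pericyte-like cell held 3 of their UMIs.

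Endothelial-like cells with a UMI of an arterial gene (*Gkn3*, *Bmx* or *Sema3g*) numbered 30 and 42 and had a higher *Gja4* level than the others, on 72 and 57 UMIs against 87 and 108. They had 391 CPM (306 to 493) and 324 CPM (245 to 419.9), and the 197 and 300 other endothelial-like cells 94.7 and 97.2 CPM. The ratio was 4.13 (2.98 to 5.71) and 3.33 (2.37 to 4.64). *Gjc1* was 97.9 and 119 CPM in the arterial and 59.9 and 117 CPM in the other cells, with ratios of 1.63 (0.903 to 2.83) and 1.02 (0.611 to 1.63) whose intervals held 1. *Gja1* in the same cells had ratios of 1.47 (1.01 to 2.104) and 0.975 (0.585 to 1.55).

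*Gjd2*, the connexin gene of electrical synapses, was highest in neuron-like cells. It stood at 41.8 CPM (31.0 to 55.1) and 100.1 CPM (88.1 to 113), from 50 and 252 UMIs, and 19.4 and 20.6 times the other classes together. Precursor-like cells followed with 10.99 CPM (4.03 to 23.9) and 17.8 CPM (10.2 to 28.8), and microglia-like cells had 1.46 and 1.43 CPM. Neuron-like cells exceeded precursor-like cells 3.799-fold (1.63 to 10.8) and 5.64-fold (3.404 to 10.01). A *Gjd2* UMI was found in 24.5% and 31.1% of neuron-like cells, at median depths of 6607 and 4434 UMIs, against 0.606% and 0.360% of microglia-like cells. After thinning to 2000 UMIs the neuron-like share was 8.50% and 13.7%.

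Neuron-like cells were split by genes of transmitter use, keeping cells with only 1 of *Slc17a6* (glutamate), *Slc32a1* (GABA and glycine) and *Chat* (acetylcholine). *Gjd2* stood at 34.0 and 85.3 CPM in *Slc17a6* cells (29 and 79), at 44.1 and 63.1 CPM in *Slc32a1* cells (71 and 198) and at 54.1 and 174 CPM in *Chat* cells (16 and 54). Over all its cells, whatever their mitochondrial share, *Chat* cells of the 4OH-tamoxifen library exceeded *Slc17a6* cells 2.03-fold (1.36 to 3.08) and *Slc32a1* cells 2.75-fold (1.93 to 3.92), and 33 of the 54 held a UMI. The untreated *Chat* cells held 4 *Gjd2* UMIs, with an interval of 14.7 to 139 CPM, and their ratio to *Slc32a1* cells was 1.23 (0.312 to 3.52). Neuron-like cells with none of the 3 genes (39 and 125) had 35.6 and 126 CPM.

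Over all neuron-like cells, the library difference of *Gjd2*, 45.8 and 74.4 CPM with cells thinned to 2000 UMIs, moved with the mitochondrial share of the cells. In a split made after the values were seen, those with at most 10% mitochondrial UMIs (77 and 265 cells) had 44.3 CPM (28.1 to 66.5) and 56.2 CPM (43.6 to 71.4). Those over 10% (82 and 211 cells) had 39.8 CPM (26.2 to 57.9) and 139.6 CPM (120.2 to 161). Of the 54 *Chat* cells of the 4OH-tamoxifen library 31 were over 10%, at 205 CPM, and of the 16 untreated *Chat* cells none was. The other 23 *Chat* cells of the 4OH-tamoxifen library had 86.7 CPM (41.6 to 159), close to the 86.0 CPM (51.8 to 134) of its *Slc17a6* cells at or under 10%. *Slc17a6* cells of that library over 10% had 84.6 CPM (51.7 to 131). The untreated *Slc17a6* cells had 44.1 CPM (14.3 to 103) at or under 10% and 27.7 CPM (8.99 to 64.6) over it, from 5 UMIs each. In the 4OH-tamoxifen library, *Slc32a1* cells stood at 46.9 CPM (31.1 to 67.7) at or under 10% and at 89.5 CPM (61.6 to 126) over it, with overlapping intervals. Its cells with none of the 3 genes stood at 26.0 CPM (8.44 to 60.6) and 185 CPM (141 to 239), which do not overlap. In the untreated library, *Slc32a1* cells stood at 45.4 and 43.5 CPM and cells with none of the 3 genes at 35.9 and 34.9 CPM. Whether mitochondrial share, neuron type or condition set the higher level was not tested.

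**Figure D4:**
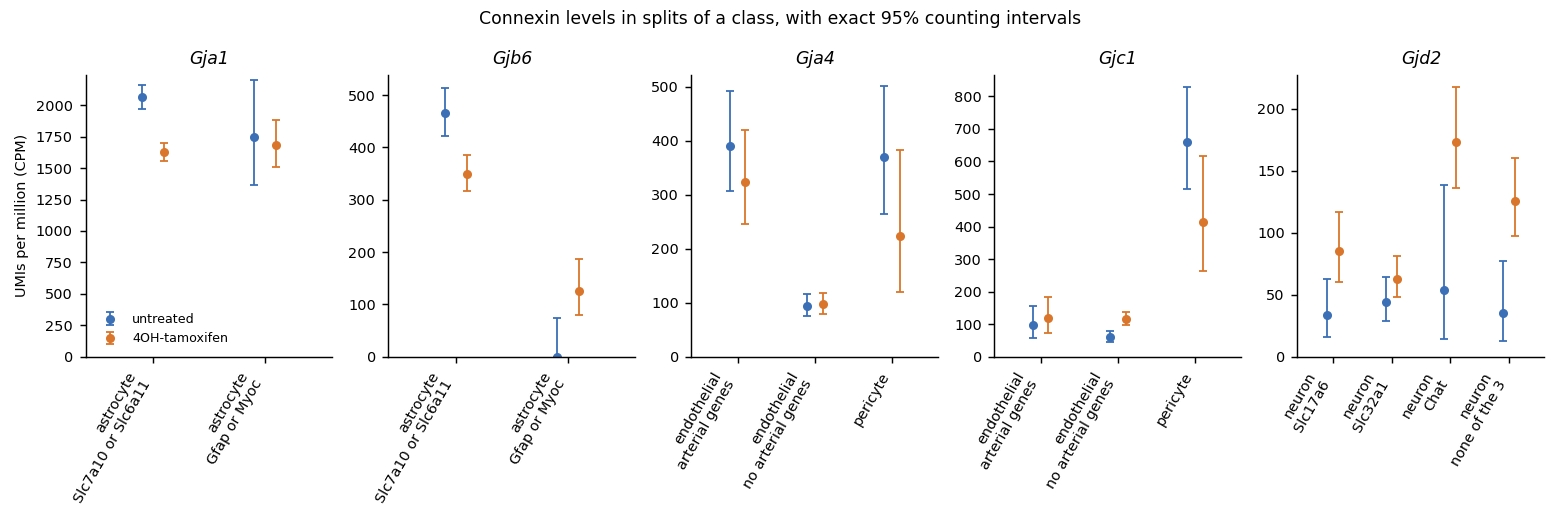
Levels in CPM (linear axes from 0, with a scale of its own for each gene) of *Gja1* and *Gjb6* in 2 splits of astrocyte-like cells, *Gja4* and *Gjc1* in arterial and other endothelial-like and in pericyte-like cells, and *Gjd2* in 4 splits of neuron-like cells, with exact 95% Poisson intervals (for 0 UMIs, a bar up to the level of 3 UMIs). *Gjb6* and *Gja4* differ between the splits in both libraries, whereas the untreated *Gjd2* levels (blue) lie within one another's intervals.

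Between the libraries, 41 member and class pairs had at least 20 UMIs, and 8 of them were at least 2-fold apart. By class these were 2 of 7 members in astrocyte-like cells (6.02% of all genes tested in that class), 0 of 5 in precursor-like (6.76%), 1 of 5 in committed precursor-like (5.73%), 0 of 4 in oligodendrocyte-like (4.33%), 2 of 4 in microglia-like (10.5%), 0 of 5 in endothelial-like (6.21%), 1 of 3 in pericyte-like (11.6%), 1 of 3 in fibroblast-like (14%) and 1 of 5 in neuron-like cells (6.05%). The median of all genes tested moved between -0.07 and 0.06 on the log2 scale in every class. The 8 were *Gjb2* in fibroblast-like cells (0.111), *Gjd2* in neuron-like cells (2.40, 1.76 to 3.32) and committed precursor-like cells (5.91, 1.45 to 51.8), *Gja1* in microglia-like and pericyte-like cells, *Gjc3* in microglia-like cells (2.08, 1.12 to 4.04), and *Gjb1* and *Gjc1* in astrocyte-like cells. The committed precursor-like *Gjd2* ratio rests on 2 and 22 UMIs, and the 6 neuron check markers moved the same way there, from 259 to 416 CPM, which was not tested as its source. In microglia-like cells the 6 precursor check markers moved the same way as *Gjc3*, from 160.1 to 286 CPM. The 6 oligodendrocyte check markers did too, from 11794 to 16542 CPM, and neither list was tested as its source. With each cell thinned to 2000 UMIs 28 pairs kept at least 20 UMIs and 4 were 2-fold apart. The share of all genes past 2-fold is not given for thinned cells. Only *Gjb2* in fibroblast-like and *Gjc3* in microglia-like cells (2.64, 1.09 to 7.31) were among the 8. The other 2 were *Gjb6* in fibroblast-like cells (0.459, 0.248 to 0.813) and *Gja4* in pericyte-like cells (0.347, 0.0400 to 1.38). This *Gja4* ratio rests on 28 and 2 UMIs in 34 and 7 cells, with an interval that held 1. *Gjd2* in neuron-like cells then had a ratio of 1.63 (0.903 to 3.14), *Gja1* in microglia-like cells of 1.46 (0.9395 to 2.29) and *Gjb1* in astrocyte-like cells of 1.82 (0.801 to 4.52), with intervals that held 1. The remaining 3 pairs of the 8 fell under 20 UMIs. Apart from *Gjb2* in fibroblast-like and *Gjd2* in neuron-like cells, each of these was in a class other than the gene's leading class.

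In astrocyte-like cells *Gja1* and *Gjb6* were lower in the 4OH-tamoxifen library, by less than 2-fold. *Gja1* had a ratio of 0.775 (0.745 to 0.806) and *Gjb6* of 0.691 (0.627 to 0.762), and the sum of the 6 astrocyte check markers stood at 8007 and 8270.5 CPM. *Gjb1*, *Gjc1* and *Gjc3* had ratios of 2.75 (1.52 to 5.31), 2.44 (0.788 to 10.04) and 1.12 (0.908 to 1.38) there, the first pair at levels under 20 CPM. *Gja1* was higher in the 4OH-tamoxifen library in microglia-like cells (2.03, 1.47 to 2.82), committed precursor-like cells (1.67, 1.35 to 2.07) and neuron-like cells (1.56, 1.12 to 2.198). With cells thinned the neuron-like ratio was 1.02 (0.641 to 1.68). The astrocyte check markers moved the same way in those classes, from 725 to 1347 CPM, from 816 to 1273 CPM and from 1138 to 1233 CPM, and their part in the *Gja1* ratio was not tested. *Gjb1* in oligodendrocyte-like cells had a ratio of 1.02 (0.967 to 1.08), and *Gjb2* in astrocyte-like cells of 0.986 (0.591 to 1.68). *Gjc1* in endothelial-like cells had a ratio of 1.77 (1.33 to 2.38), and in pericyte-like cells of 0.628 (0.379 to 1.01).

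**Figure D5:**
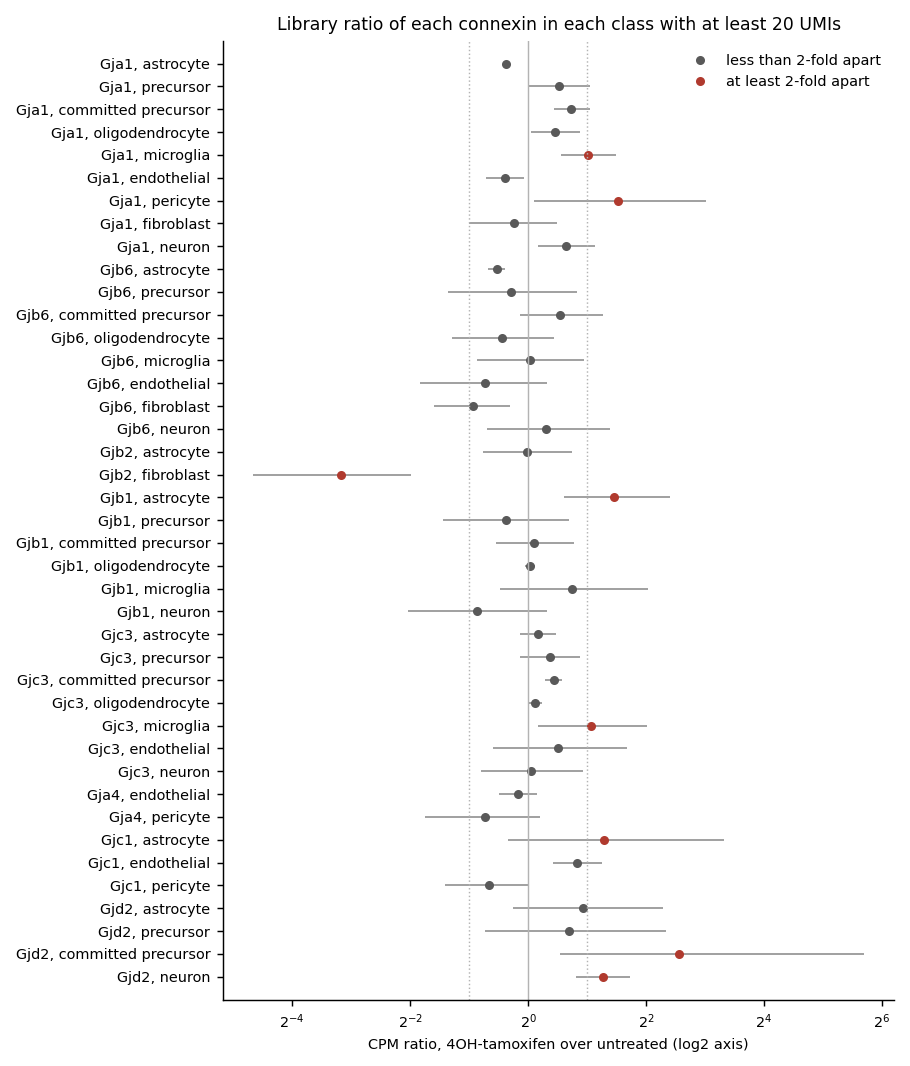
Ratio of CPM in the 4OH-tamoxifen library over the untreated library (log2 axis) for each of the 41 member and class pairs with at least 20 UMIs, with exact conditional 95% intervals. Red points are at least 2-fold apart, and *Gjb2* in fibroblast-like cells lies farthest to the left at 0.111.

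Of the connexin genes that are no members, *Gja3*, *Gja10*, *Gjb5*, *Gjd3* and *Gje1* had 0 UMIs in all barcodes of both libraries. *Gja5*, known from arterial endothelium, had 10 and 9 UMIs in the gated cells, with 4 and 2 of them in endothelial-like cells, and *Gja6* and *Gjd4* had at most 2 such UMIs in a library. Of the pannexins, which form related channels, *Panx1* was highest in committed precursor-like cells (66.2 and 94.3 CPM) and *Panx2* in neuron-like cells (42.6 and 64.0 CPM), and *Panx3* had 0 UMIs. Of the scaffold genes whose proteins bind connexins, *Tjp1* was highest in endothelial-like cells (312 and 366 CPM) and *Tjp3* held at most 1 UMI in a library.

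The genes whose levels ran most like a member were found by Pearson's r over 18 profiles (9 classes in 2 libraries, log2 of CPM plus 10) among 6706 genes with at least 50 CPM in a class of each library. The profiles share libraries and depth, so r is given as a description. For *Gja1* these were *Rhoq*, *Htra1* and *Sardh* (r of 0.970, 0.965 and 0.961), and for *Gjb6* *Igfbp2*, *Aldh1a1* and *Slc7a11* (0.959, 0.954 and 0.941). For *Gjb2* they were *Islr*, *Aebp1* and *Fbln1* (0.957, 0.953 and 0.952). For *Gjb1* they were *Erbb3*, *Hapln2* and *Ccdc13* (0.972, 0.964 and 0.961), and for *Gjc3* *Pigyl*, *Deb1* and *Psat1* (0.956, 0.932 and 0.932). *Gja4* ran with *Itga1*, *Dlc1* and *Tm4sf1* (0.975, 0.963 and 0.961), and *Gjc1* with *Tm4sf1*, *Higd1b* and *Itga1* (0.983, 0.983 and 0.972). *Gjd2*, itself under 50 CPM in the untreated library, ran with AW551984, *Nptxr* and *Spock1* (0.959, 0.952 and 0.952). Among the members themselves, r was highest between *Gja4* and *Gjc1* (0.949), *Gjb2* and *Gjb6* (0.807), *Gja1* and *Gjb6* (0.767) and *Gjb1* and *Gjc3* (0.710).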

How the data were processed

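The authors converted the reads with bcl2fastq 2.18.0.12 and counted UMIs with Cell Ranger 2.2.0 against the 10X Genomics mm10 (GRCm38) reference, and the deposited values are raw counts of UMIs per gene and cell barcode. Barcodes with at least 800 genes, at most 50 hemoglobin UMIs and at most 20% mitochondrial UMIs were kept, after removal of 6 untreated and 544 4OH-tamoxifen doublets called by Scrublet in scanpy 1.11.5. Its automatic threshold differed between the libraries (scores of 0.512 and 0.179), so doublets may remain in the untreated library. A cell joined a class with at least 2 UMIs of its marker and at most 1 of each of the 8 others, except that *Pdgfra* did not count against *Gpr17* or *Dcn* cells. Gated cells were 72.4% and 67.8% of those kept. UMIs were summed per class and library, which weights deep cells more, and scaled to CPM. Intervals are exact (Poisson for levels, conditional binomial for ratios), were computed with scipy 1.17.1 and tested on simulated data. A check marker was detected when its CPM was at least 2 times that in the other classes, with 10 CPM added to both, in at least 10% of cells. Genes named are the 8 members, other connexins, pannexins and *Tjp* genes, markers, and the 3 genes most like each member. Members, lists and splits were chosen with earlier results of these data known, the splits by *Ptgds* and by mitochondrial share after these values were seen. Alternatives changed the gates, filters, doublets, clustering, depth and thresholds. Levels were not compared between genes. Some genes of these lists are not reported here.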

Additional observations from a re-analysis of the deposited data

Results flagged for a closer look

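*Gja1* moved in opposite directions between the libraries in the neighbouring cells of the vessel wall, and this difference was not tested. In endothelial-like cells its ratio of 4OH-tamoxifen over untreated was 0.765 (0.613 to 0.954), from 176 and 157 UMIs. In pericyte-like cells the ratio was 2.87 (1.08 to 8.08), from 8 and 12 UMIs in 43 and 31 cells. With cells thinned to 2000 UMIs the ratios were 0.8095 (0.562 to 1.17) and 6.48 (1.0956 to 44.2), the latter from 3 and 4 UMIs. The 6 astrocyte check markers summed to 626 and 832 CPM in endothelial-like and to 1082 and 1309 CPM in pericyte-like cells, and their part was not tested. With all UMIs the *Gja1* ratio was also above 1 in microglia-like (2.03), committed precursor-like (1.67), neuron-like (1.56), precursor-like (1.43) and oligodendrocyte-like cells (1.37). It was below 1 in astrocyte-like (0.775) and fibroblast-like cells (0.844). The rise was thus not particular to pericyte-like cells.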

How the results depend on the processing

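No paired analysis was possible because each condition has 1 library, and no replicate could be left out. The number of member and class pairs 2-fold apart between the libraries moved from 8 to 4 with every cell thinned to 2000 UMIs, to 19 at 1.5-fold and to 5 with at least 50 UMIs. The number enriched 4-fold in a class (10) stayed between 8 and 12, and the number of members with the same leading class (7) between 6 and 8, under the alternatives tried. Of 451 log2 library ratios recomputed, 409 moved by less than counting error, 42 by more, and no called ratio changed sign. Of 176 levels 32 moved by more than counting error, and so did 15 of 16 shares of cells when at least 2 UMIs were asked for. *Gjd2* in neuron-like cells of the 4OH-tamoxifen library fell from 100.1 to 56.2 CPM with at most 10% mitochondrial UMIs, and *Gja4* in pericyte-like cells of that library from 224 to 66.2 CPM with at least 1200 genes. *Gjb2* in its fibroblast-like cells ranged from 18.5 CPM when thinned to 121 CPM with no UMI of another class marker, and in the untreated library from 349 CPM without cells rich in *Ptgds*, an alternative added after seeing the data, to 635 CPM. Counts under 20 UMIs, as in pericyte-like and fibroblast-like cells, limit what these libraries can show.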
